A study of Arabidopsis thaliana with 6 samples.

Results

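The mitochondrial genome of Arabidopsis thaliana was followed in germinated seeds whose radicle had just protruded, through the 129 features of the array table whose locus ID starts with ATMG, out of 35986 features in all. Each of these features stands for a different locus of the mitochondrial genome. Re-establishment of desiccation tolerance (DT) by osmotic stress was studied in Col-0 seeds with 6 Affymetrix arrays. Of these, 3 arrays were made from pools of germinated seeds kept for 72 h in polyethylene glycol (PEG) at -2.5 MPa, at 20 °C in the dark, and 3 arrays from pools of germinated seeds frozen without treatment. All seeds had been stratified for 72 h at 4 °C and germinated at 22 °C under constant white light, and 50 ng of RNA was used per array. PEG, which lowers the water potential of the medium, darkness, time and the lower temperature changed together between the groups and cannot be told apart. Seeds were bulk harvested in replicates of at least 2 plants, and whole germinated seeds were used, so that fewer cells of a type, fewer mitochondria per cell and less transcript per mitochondrion cannot be told apart either.

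Mitochondria make ATP by passing electrons from NADH and other donors along the complexes of the respiratory chain to oxygen, and they become active again when a dry seed takes up water. The plant mitochondrial genome keeps only a small part of the genes this needs. It encodes some of the subunits of complex I (NADH dehydrogenase), complex III, complex IV (cytochrome c oxidase) and ATP synthase, factors of cytochrome c maturation, ribosomal proteins, ribosomal and transfer RNAs, a maturase for introns and many open reading frames of unknown role. All other subunits come from nuclear genes and are imported.

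The features carry locus IDs without gene names. None of the 129 IDs (0 matches) was paired with a name by the RefSeq gene table used here, so the features could not be sorted into respiratory subunits, ribosomal genes, maturation genes and open reading frames, and they are given by locus ID. A single exception was ATMG01090, which the annotation supplied with the study calls ATP synthase 9 mitochondrial. Subunit 9 belongs to the membrane ring of ATP synthase, and whether ATMG01090 encodes it was not examined.

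Not all features measured the mitochondrial genome alone. Chromosome 2 of the nucleus holds a large insertion of mitochondrial DNA, and 25 of the 129 features had the same values on all 6 arrays as a nuclear locus of chromosome 2. For these features the mitochondrial and the nuclear copy cannot be told apart. The row of ATMG00930 was shared with both a nuclear and a chloroplast locus. A further 4 features formed 2 pairs with identical values within the mitochondrial genome, ATMG00100 with ATMG00700 and ATMG00170 with ATMG00620. The other 100 features had a row of their own.

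Declining transcript levels were more frequent than accumulating ones. After PEG, 22 of the 129 features (17.1 %) were lower and 3 (2.33 %) were higher at an adjusted p of 0.01 or less (limma, Benjamini-Hochberg adjustment over all features), against 8.24 % lower and 7.46 % higher among all 35986 features. The set of all features holds 12085 features at or under 4 on all arrays, the floor to which low values were set, whereas only 3 of the mitochondrial features lay there (ATMG00910, ATMG00970 and ATMG01240). Among the 22468 features above 4 on at least 3 arrays, refitted alone, 32 of the 126 mitochondrial features that remained (25.4 %) were lower, against 23.8 % of all features kept. On the other side, 7 (5.56 %) were higher, against 22.2 % of all features kept. The share of falls was thus near the background of expressed features, and the share of rises was below it. No feature passed the fold limit of 2 on the log2 scale together with the adjusted p (0 of 129, limma), a combination that 2.75 % of all features met. At an unadjusted p under 0.05, 47 features were lower and 22 higher, against 19.2 % lower and 19 % higher among all features. With the filter, 47 were lower and 17 higher, against 32.7 and 32.3 % of all features kept.

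The arrays of the groups did not overlap for 50 features with lower and 27 with higher values after PEG (38.8 and 20.9 %), against 21.1 and 20.8 % of all features. Among the features kept by the filter on low values, the same numbers were 39.7 % lower and 21.4 % higher in the mitochondrial genome, against 33.8 and 33.3 % of all features kept. The median log2 fold change of the 129 features was -0.11, with quartiles of -0.53 and 0.16, and 73 had a value below 0 and 53 above it. Over all features the quartiles were -0.21 and 0.21, and over the features kept the median was 0.01 with quartiles of -0.55 and 0.51. Mitochondrial features therefore spanned a narrower range than the expressed features as a whole, without the large changes in either direction.

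The number of falls that passed was lower whichever array was left out. It was 10, 8 and 6 without PEG replicates 1, 2 and 3, and 5, 10 and 8 without untreated replicates 1, 2 and 3, and the 3 rises became 1 or 2. Each of these fits also has fewer arrays, and the part of this in the lower counts was not tested. The shares of all features that passed in them are not given here. Of the 25 features, 5 passed in each of these fits, namely ATMG00610, ATMG00690, ATMG00870, ATMG00590 and ATMG00400. With the filter on low values, added after seeing the data, leaving out an array gave 22 to 28 falls and 3 to 5 rises. All 25 features kept their direction in each alternative fit.

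**Figure D1:**
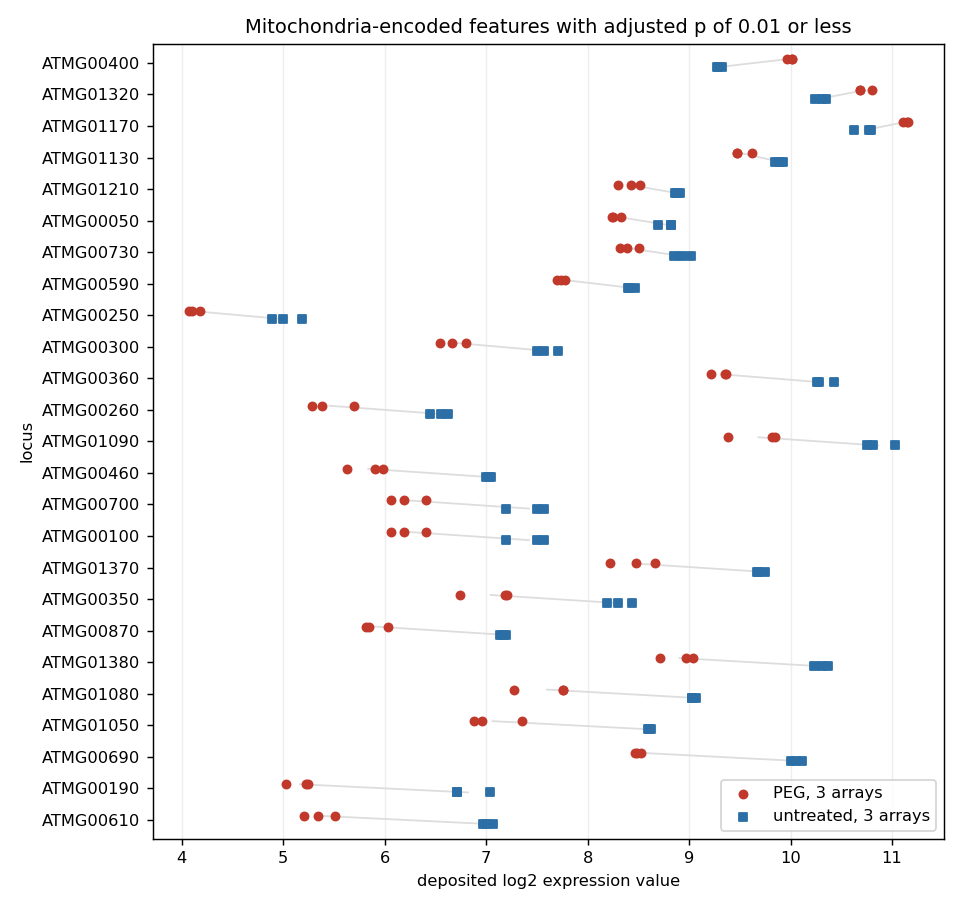
Deposited log2 expression values (x axis) of the 25 mitochondria-encoded features with an adjusted p of 0.01 or less, 1 row per locus, with the 3 PEG arrays as circles and the 3 untreated arrays as squares and a line between the group means. In 22 rows the PEG arrays lie below the untreated arrays, and in 3 rows (ATMG00400, ATMG01320 and ATMG01170) above them.

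The 5 largest falls were between -1.66 and -1.44 on the log2 scale. After PEG, ATMG00610 had log2 values of 5.34, 5.21 and 5.51, against 6.99, 7.07 and 6.97 in untreated seeds, which gave a change of -1.66 ± 0.089 (SE, adjusted p 0.000957). These levels after PEG correspond to 0.316 of those in untreated seeds. For ATMG00190, the PEG arrays read 5.22, 5.03 and 5.24 and the untreated arrays 6.71, 6.72 and 7.04, a difference of -1.66 ± 0.12 on the log2 scale (SE, adjusted p 0.00193). PEG replicate 2 was the lowest array in both of these features, and the groups did not overlap.

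ATMG00690 had 8.48, 8.47 and 8.52 on the PEG arrays, against 10.05, 10.002 and 10.11 on the untreated arrays, and changed by -1.57 ± 0.034 on the log2 scale (SE, adjusted p 0.000144). The spread among arrays was the smallest of these 5 features, and the groups lay far apart. After PEG, ATMG01050 had log2 values of 6.96, 6.88 and 7.35, against 8.63, 8.60 and 8.61 in untreated seeds, which gave a change of -1.55 ± 0.14 (SE, adjusted p 0.00327). In this feature the PEG arrays were spread more widely than the untreated arrays. For ATMG01080, the PEG arrays read 7.28, 7.76 and 7.76 and the untreated arrays 9.07, 9.03 and 9.03, a difference of -1.44 ± 0.15 on the log2 scale (SE, adjusted p 0.00471). PEG replicate 1 was the lowest, and the untreated arrays lay close together. The falls of ATMG00190, ATMG01050 and ATMG01080 lost the adjusted p of 0.01 when single arrays were left out, with a highest adjusted p of 0.0122, 0.0194 and 0.0257 in limma, and kept their direction.

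Further falls were picked for naming once their values were known. ATMG01380 had 8.71, 9.04 and 8.97 on the PEG arrays, against 10.37, 10.23 and 10.31 on the untreated arrays, and changed by -1.40 ± 0.10 on the log2 scale (SE, adjusted p 0.00196). After PEG, ATMG01370 had log2 values of 8.22, 8.67 and 8.48, against 9.75, 9.67 and 9.68 in untreated seeds, which gave a change of -1.24 ± 0.13 (SE, adjusted p 0.00418). In both of them PEG replicate 1 was the lowest array. For ATMG00870, the PEG arrays read 6.03, 5.85 and 5.82 and the untreated arrays 7.14, 7.16 and 7.20, a difference of -1.27 ± 0.065 on the log2 scale (SE, adjusted p 0.000885). The groups were again apart, with little spread in either. ATMG00100 had 6.06, 6.41 and 6.19 on the PEG arrays, against 7.19, 7.50 and 7.57 on the untreated arrays, and changed by -1.20 ± 0.15 on the log2 scale (SE, adjusted p 0.00691). The same values stand for ATMG00700. This call was lost in each fit with an array left out, with an adjusted p of up to 0.0341 (limma). After PEG, ATMG00360 had log2 values of 9.21, 9.37 and 9.36, against 10.28, 10.26 and 10.43 in untreated seeds, which gave a change of -1.01 ± 0.07 (SE, adjusted p 0.0017). Its untreated arrays all lay above its PEG arrays. In all, 15 of the 22 falls were by 1 or more on the log2 scale, and the smallest of the 22 was -0.37.

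ATMG01090, the feature annotated as ATP synthase 9, was among the falls. For ATMG01090, the PEG arrays read 9.38, 9.85 and 9.82 and the untreated arrays 10.75, 10.81 and 11.03, a difference of -1.18 ± 0.17 on the log2 scale (SE, adjusted p 0.0097). PEG replicate 1 was the lowest array, and all PEG arrays lay below the untreated arrays. The call was lost with a floor of 5 (adjusted p 0.0114) and in each fit with an array left out, with an adjusted p of 0.0136 to 0.038 (limma), and held with the filter on low values (adjusted p 0.000211). The nuclear locus AT2G07777, which the same annotation also calls ATP synthase 9 mitochondrial, has a row of its own. AT2G07777 had 8.14, 8.44 and 8.45 on the PEG arrays, against 9.40, 9.50 and 9.56 on the untreated arrays, and changed by -1.14 ± 0.11 on the log2 scale (SE, adjusted p 0.00361). Both features with this annotation were thus lower after PEG, and whether either encodes the subunit was not examined. Whether the probes of each feature read that copy alone was not tested.

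Accumulating transcripts were few and changed less. After PEG, ATMG00400 had log2 values of 10.01, 10.01 and 9.97, against 9.33, 9.28 and 9.29 in untreated seeds, which gave a change of 0.70 ± 0.021 (SE, adjusted p 0.000294). The spread among the arrays of a group was small, and the call held with each array left out. For ATMG01320, the PEG arrays read 10.68, 10.68 and 10.81 and the untreated arrays 10.31, 10.24 and 10.35, a difference of 0.42 ± 0.051 on the log2 scale (SE, adjusted p 0.00644). ATMG01170 had 11.16, 11.15 and 11.10 on the PEG arrays, against 10.63, 10.77 and 10.79 on the untreated arrays, and changed by 0.41 ± 0.052 on the log2 scale (SE, adjusted p 0.00748). In both, all PEG arrays lay above all untreated arrays. Without single arrays the adjusted p was up to 0.0306 for ATMG01320 and up to 0.0364 for ATMG01170 (limma). With the filter on low values, ATMG01320 and ATMG01170 had an adjusted p of 0.0123 and 0.0144, and ATMG00400 was the only one of the 3 that passed.

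Larger differences in the same direction did not pass the test. ATMG00680, chosen after its values were seen, had the largest of all. After PEG, ATMG00680 had log2 values of 6.72, 5.90 and 6.64, against 5.69, 5.17 and 5.50 in untreated seeds, which gave a difference of 0.96 ± 0.29 (SE, adjusted p 0.0765). The arrays of the groups did not overlap, but PEG replicate 2 lay close to the highest untreated array. For ATMG00930, the PEG arrays read 9.42, 9.56 and 9.34 and the untreated arrays 8.69, 8.27 and 8.72, a difference of 0.88 ± 0.15 on the log2 scale (SE, adjusted p 0.0175). This row is shared with the nuclear AT2G07748 and with a chloroplast locus, and RefSeq annotates AT2G07748 as a transfer RNA for tryptophan. ATMG00920 had 9.73, 9.88 and 9.99 on the PEG arrays, against 9.26, 8.98 and 9.22 on the untreated arrays, a difference of 0.71 ± 0.11 on the log2 scale (SE, adjusted p 0.0125). Untreated replicate 2 was the lowest of the untreated arrays in all 3 of these features. With the filter on low values, all 3 had an adjusted p under 0.01 (0.0052, 0.001 and 0.0016 for ATMG00680, ATMG00930 and ATMG00920 in limma).

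Many mitochondrial features changed little. Of the 126 features above 4 on at least 1 array, 42 (33.3 %) had a 95 % confidence interval of the log2 fold change that lay wholly between -0.5 and 0.5, against 17 % of all features above 4 on some array. The median residual SD was 0.14 for the mitochondrial features and 0.18 for all features kept by the filter.

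**Figure D2:**
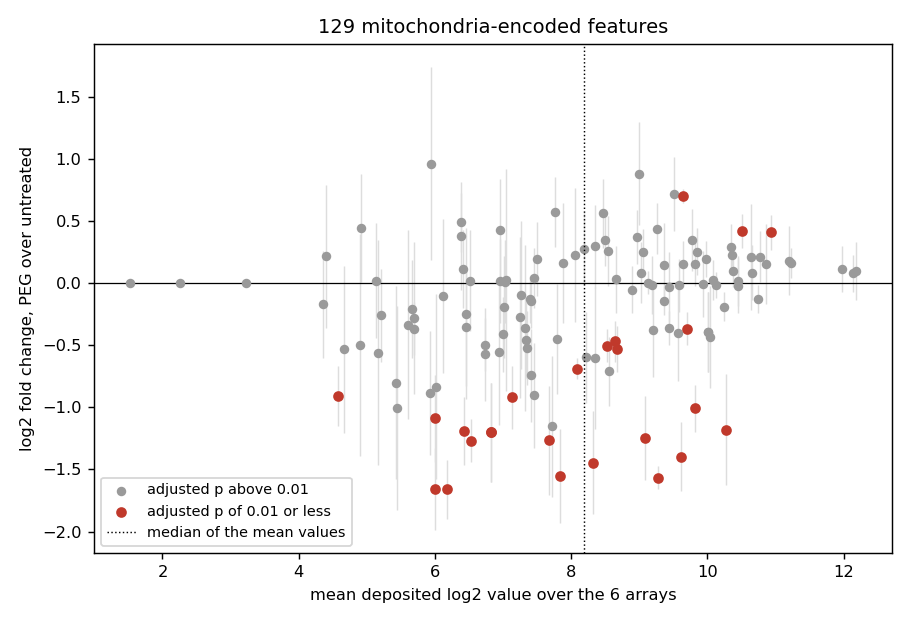
Log2 fold change of PEG over untreated seeds (y axis) against the mean deposited log2 value over the 6 arrays (x axis) for the 129 mitochondria-encoded features, with 95 % confidence intervals as lines. Features with an adjusted p of 0.01 or less are red, and the dotted line marks the median of the mean values at 8.19.

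Lower values after PEG were more frequent among features with low signal. The features were split at the median of their mean over all 6 arrays (8.19), a split made after the data were seen. Among the 65 features with the lower mean, the median log2 fold change was -0.33, with 44 features lower and 18 higher, of which 12 lower and 0 higher passed the test in limma (26 lower and 5 higher at an unadjusted p under 0.05). Among the 64 features with the higher mean, the median was 0.03, with 29 features lower and 35 higher, of which 10 and 3 passed. All 3 rises that passed were among the features with the higher mean. Features outside the mitochondrial genome that lay above 4 on at least 3 arrays had medians of 0.02 below and -0.03 above the same limit. Below it, 13 % of them passed as lower and 11.8 % as higher, against 18.5 and 0 % of the mitochondrial features, and above it 14.4 and 14.2 %, against 15.6 and 4.69 %. Refitted with the filter, the shares of lower features were 33.9 % (21 of 62) in the mitochondrial genome and 23.8 % outside it below the limit, and 17.2 % and 24.3 % above it. The shares of higher features were 4.84 % and 22.6 % below the limit, and 6.25 % and 19.9 % above it. No test of these differences was made.

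The shift in the 65 features with low signal was present on all PEG arrays and was largest on 1 of them. Its median was 6.53, 6.29 and 6.64 on PEG replicates 1, 2 and 3, against 6.93, 6.95 and 6.92 on untreated replicates 1, 2 and 3. PEG replicate 2 was the lowest PEG array for 45 of these 65 features and for 20 of the 64 features with higher signal. The medians of those 64 features were also lower on every PEG array (9.61 to 9.67) than on the untreated arrays (9.69 to 9.77), by less. Without PEG replicate 2 the median over all 129 features was -0.03. The part of this array in the shift was not tested.

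**Figure D3:**
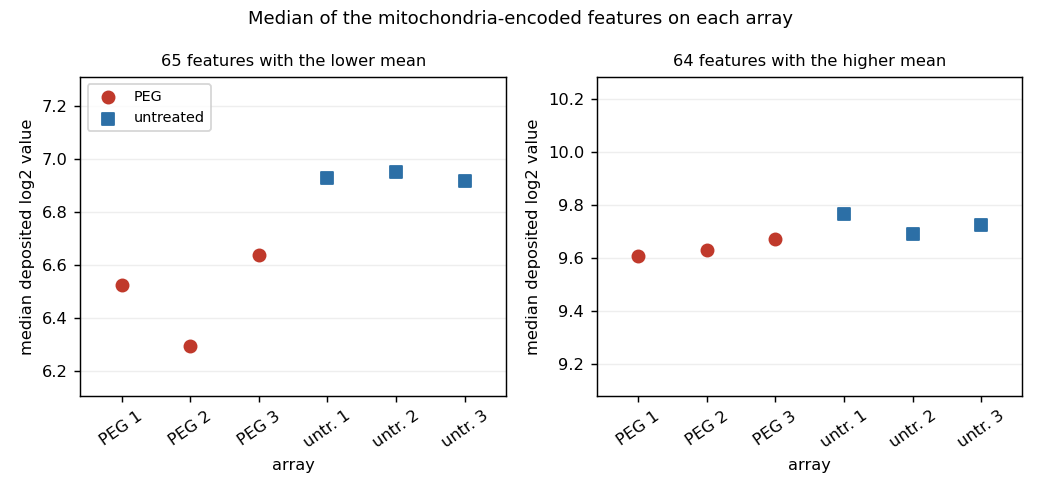
Median deposited log2 value (y axis) on each of the 6 arrays (x axis), for the 65 mitochondria-encoded features with the lower mean (left panel) and the 64 with the higher mean (right panel), with both axes spanning the same range. In the left panel the PEG arrays lie at 6.29 to 6.64 and the untreated arrays at 6.92 to 6.95. In the right panel the PEG arrays lie at 9.61 to 9.67 and the untreated arrays at 9.69 to 9.77.

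Among the 25 features that share their row with a nuclear locus, 9 had a partner that RefSeq annotates as a transfer RNA, the adaptor that carries an amino acid to the ribosome. These 9 features had a median log2 fold change of -0.56, with 6 lower and 3 higher. Of them, 3 passed the test, all lower, against 8.24 % lower and 7.46 % higher among all features. With the filter, 4 were lower and 1 higher, against 23.8 and 22.2 % of all features kept. After PEG, ATMG00350 had log2 values of 7.21, 6.74 and 7.19, against 8.19, 8.30 and 8.44 in untreated seeds, which gave a change of -1.27 ± 0.16 (SE, adjusted p 0.00755). Its partner AT2G07762 is annotated as a transfer RNA for proline. The call of ATMG00350 was lost in each fit with an array left out (adjusted p up to 0.0335, limma). For ATMG00460, the PEG arrays read 5.98, 5.63 and 5.90 and the untreated arrays 7.03, 7.05 and 7.002, a difference of -1.19 ± 0.10 on the log2 scale (SE, adjusted p 0.00284). ATMG00250 had 4.10, 4.07 and 4.18 on the PEG arrays, against 5.19, 5.001 and 4.89 on the untreated arrays, and changed by -0.91 ± 0.089 on the log2 scale (SE, adjusted p 0.00384). The partners of both, AT2G07794 and AT2G07758, are annotated as transfer RNAs for methionine. ATMG00250 lay only just above the floor of 4 after PEG. After PEG, ATMG01340 had log2 values of 7.15, 6.79 and 7.49, against 8.13, 8.36 and 8.40 in untreated seeds, which gave a difference of -1.15 ± 0.21 (SE, adjusted p 0.0201). This feature, whose partner AT2G07755 is also annotated for methionine, was lower on every PEG array but did not pass the test. The rows shared with partners for asparagine (ATMG00380, 0.34, adjusted p 0.0577) and aspartate (ATMG01070, 0.04, adjusted p 1) did not pass in limma, and the sign of ATMG01070 turned without PEG replicate 3 (-0.015) or untreated replicate 1 (-0.025). The amplification and labelling of such short RNAs was not examined, and overlap with longer transcripts that run through these loci cannot be told apart from the RNAs themselves.

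Of the other 16 features with a nuclear partner, 5 have one annotated as protein coding and 11 as a pseudogene. For ATMG00590, the PEG arrays read 7.73, 7.70 and 7.77 and the untreated arrays 8.47, 8.41 and 8.39, a difference of -0.69 ± 0.031 on the log2 scale (SE, adjusted p 0.000651). Its partner AT2G07718 is annotated as protein coding, and the call held with each array left out. ATMG00300 had 6.54, 6.66 and 6.80 on the PEG arrays, against 7.50, 7.70 and 7.57 on the untreated arrays, and changed by -0.92 ± 0.093 on the log2 scale (SE, adjusted p 0.00419). The partner of this feature, AT2G07736, is annotated as a pseudogene. With any array left out, ATMG00300 did not pass (adjusted p up to 0.024, limma). In all, 6 of the 25 features shared with the nucleus passed, all lower. With the filter, 9 (36 %) were lower and 1 (4 %) higher, against 23.8 and 22.2 % of all features kept. Over the 100 features with a row of their own, the median log2 fold change was -0.02, with 14 lower and 3 higher features that passed (14 and 3 %), and over the 29 features with a shared row it was -0.39, with 8 lower and 0 higher (27.6 and 0 %), against 8.24 and 7.46 % of all features. With the filter, 21.6 % of the features with their own row and 37.9 % of those with a shared row were lower, against the same 23.8 %. A row that is shared cannot assign this difference to either genome.

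The insertion on chromosome 2 was then examined through its own locus IDs. Of its loci, those from AT2G07667 to AT2G07787 were taken, which gave 80 features, of which 59 had values that differ from those of any mitochondrial feature. The nuclear partners AT2G07794, AT2G07809, AT2G07812 and AT2G07826 have higher IDs and are not among the 80. Of these 59, 14 (23.7 %) were lower and 2 (3.39 %) higher at an adjusted p of 0.01 or less, against 8.24 and 7.46 % of all features, and their median change was -0.25 on the log2 scale. With the filter, 19 of 58 (32.8 %) were lower and 4 (6.9 %) higher, against 23.8 and 22.2 % of all features kept. After PEG, AT2G07684 had log2 values of 6.44, 6.55 and 6.76, against 8.46, 8.67 and 8.60 in untreated seeds, which gave a change of -1.99 ± 0.11 (SE, adjusted p 0.000974). It is annotated as a protein of unknown role. For AT2G07756, the PEG arrays read 5.15, 5.01 and 5.19 and the untreated arrays 6.63, 6.68 and 6.998, a difference of -1.65 ± 0.12 on the log2 scale (SE, adjusted p 0.00195). RefSeq annotates it as a transfer RNA for glycine. AT2G07721 had 6.53, 6.31 and 6.68 on the PEG arrays, against 7.997, 7.93 and 8.13 on the untreated arrays, and changed by -1.51 ± 0.12 on the log2 scale (SE, adjusted p 0.00224). The only 2 rises that passed were AT2G07678 and AT2G07711. After PEG, AT2G07678 had log2 values of 9.12, 9.17 and 9.22, against 8.54, 8.31 and 8.56 in untreated seeds, which gave a change of 0.70 ± 0.083 (SE, adjusted p 0.00626). For AT2G07711, the PEG arrays read 9.35, 9.49 and 9.52 and the untreated arrays 8.90, 8.73 and 8.93, a difference of 0.60 ± 0.077 on the log2 scale (SE, adjusted p 0.0077). The PEG arrays lay above the untreated arrays in both. Whether these 59 features share probes with mitochondrial features was not tested, and their values are no independent support for those of the mitochondrial genome.

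Complexes of the respiratory chain join mitochondria-encoded with nuclear subunits. A list of 40 nuclear loci for subunits of complex I, complex III with cytochrome c, complex IV and ATP synthase was set beside the mitochondrial features. It was drawn up from general knowledge, and for 15 of the 40 the annotation used here gives a name or role that was matched to the list. Some of these names, gamma carbonic anhydrase and mitochondrial processing peptidase among them, do not name a complex of the respiratory chain. Of the 40, 9 (22.5 %) were lower and 2 (5 %) higher at an adjusted p of 0.01 or less, against 8.24 % lower and 7.46 % higher among all features, with a median of -0.34. With the filter, 16 of 39 (41 %) were lower and 4 (10.3 %) higher, against 23.8 and 22.2 % of all features kept. The 11 calls became 3 to 5 with an array left out (5, 4 and 5 without PEG replicates 1, 2 and 3, and 3, 4 and 5 without untreated replicates 1, 2 and 3), and 13 to 16 when the filter on low values was also applied. Among the 15 annotated loci, 5 were lower and 0 higher (10 lower and 1 higher at an unadjusted p under 0.05, a limit that 19.2 and 19 % of all features met, limma).

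Of the 9 falls, 6 were in the list of complex III and cytochrome c, where 6 of 13 were lower and 0 higher (8 and 0 at an unadjusted p under 0.05, limma), against 8.24 and 7.46 % of all features (19.2 and 19 % at an unadjusted p under 0.05). With the filter, 7 of 12 were lower and 0 higher, against 23.8 and 22.2 % of all features kept (8 and 0 at an unadjusted p under 0.05, against 32.7 and 32.3 %). AT5G05370 had 5.42, 5.56 and 5.45 on the PEG arrays, against 7.87, 8.15 and 7.96 on the untreated arrays, and changed by -2.52 ± 0.089 on the log2 scale (SE, adjusted p 0.000422). Annotated as subunit 8 of the cytochrome b-c1 complex, which is complex III, it was the only listed locus past both limits. After PEG, CYTC-2 (AT4G10040) had log2 values of 7.33, 6.76 and 6.93, against 8.73, 8.65 and 8.69 in untreated seeds, which gave a change of -1.69 ± 0.16 (SE, adjusted p 0.0038). For CYTC-1 (AT1G22840), the PEG arrays read 9.55, 9.55 and 9.63 and the untreated arrays 10.57, 10.50 and 10.55, a difference of -0.96 ± 0.032 on the log2 scale (SE, adjusted p 0.000358). These genes encode cytochrome c, the small protein that carries electrons from complex III to complex IV. The PEG arrays of both lay below all untreated arrays, with a wider spread in CYTC-2. AT3G27240 had 7.06, 7.28 and 7.45 on the PEG arrays, against 8.86, 8.90 and 8.58 on the untreated arrays, and changed by -1.52 ± 0.15 on the log2 scale (SE, adjusted p 0.00374). This locus is not named by the annotation used here. MPPalpha, a subunit of the processing peptidase that is part of complex III in plants, was also lower (-0.75 ± 0.086 SE, adjusted p 0.00565, limma).

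In the list for complex I, 1 of 11 was lower and 1 higher (9.09 and 9.09 %), against 8.24 and 7.46 % of all features. At an unadjusted p under 0.05, 5 were lower and 3 higher (limma), against 19.2 and 19 % of all features. The fall that passed the adjusted p was GAMMA CA2, a gamma carbonic anhydrase of the membrane arm of complex I. After PEG, GAMMA CA2 (AT1G47260) had log2 values of 8.60, 8.68 and 8.87, against 9.44, 9.43 and 9.47 in untreated seeds, which gave a change of -0.73 ± 0.077 (SE, adjusted p 0.00458). The related GAMMA CAL2 had a log2 fold change of 0.48 (adjusted p 0.0149) and GAMMA CA3 one of -0.95 (adjusted p 0.013), neither of which passed in limma. The rise that passed was AT1G79010 (0.59, adjusted p 0.00476). In the list for complex IV, 2 of 9 were lower and 1 higher (22.2 and 11.1 %), with a list median of -0.39. The falls were AT1G80230 (-1.21, adjusted p 0.00166) and AT3G15640 (-0.68, adjusted p 0.0038, limma). AT5G57815 was the rise (0.27, adjusted p 0.00698). At an unadjusted p under 0.05, 6 were lower and 1 higher (limma). COX6B, a subunit of complex IV, had -0.13 with an interval of -0.30 to 0.05. In the list for ATP synthase, 0 of 7 passed in limma, with 2 lower and 2 higher at an unadjusted p under 0.05 and a median of 0.01. The shares of all features given for complex I hold for the lists of complex IV and ATP synthase too. ATP3 and ATP5, the gamma and delta subunits, had log2 fold changes of -0.56 and -0.56 (adjusted p 0.0468 and 0.0237). No test of a difference between the complexes was made.

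**Figure D4:**
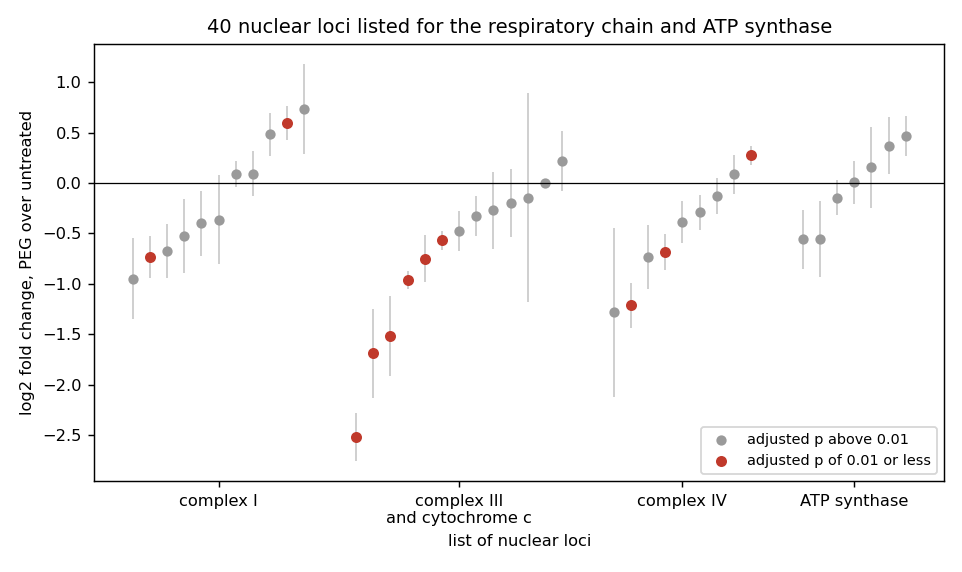
Log2 fold change of PEG over untreated seeds (y axis) with 95 % confidence intervals for 40 nuclear loci listed for the respiratory chain and ATP synthase (x axis, 4 lists, sorted within each). Loci with an adjusted p of 0.01 or less are red, with 6 of 13 lower in the list of complex III and cytochrome c and 0 of 7 in the list of ATP synthase. Of the red loci in the list of complex I, 1 was lower and 1 higher, and in that of complex IV 2 were lower and 1 higher.

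Both loci listed for mitochondrial transcription had higher values after PEG without passing the test. AT1G68990 (MGP3 in RefSeq) had a log2 fold change of 0.39 (adjusted p 0.0191) and AT5G15700 one of 0.72 (adjusted p 0.0525, limma).

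In the other organelle genome most values lay above 0. Of 132 chloroplast-encoded features, 128 had a log2 fold change above 0, with a median of 0.25, and 86 had PEG arrays all above the untreated arrays, against 27 of the 129 mitochondrial features (65.2 and 20.9 %). The share was 20.8 % over all features and 33.3 % over the features kept by the filter. At an adjusted p of 0.01 or less, 10 (7.58 %) were higher and 1 (0.758 %) lower, against 7.46 and 8.24 % of all features. With the filter, 22 (16.7 %) were higher and 1 lower, against 22.2 and 23.8 % of all features kept. Whether the 2 genomes differ was not tested, since features of a genome are not independent replicates.

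Array medians over all features were 4.81 to 4.88 for PEG and 4.86 to 4.97 for untreated seeds, and 38.2 to 41.6 % of features lay under 4. Of 5 markers listed for germinated seeds, ICL and MLS of the glyoxylate cycle had high means in both groups. These were 11.9 and 11.1 after PEG and 11.5 and 11.004 in untreated seeds. Of the same 5 markers, 2 were higher after PEG, OLEO1 and CRA1, which encode an oleosin and a storage protein. Their log2 fold changes were 5.92 and 6.42, from low means of 4.39 and 5.57 in untreated seeds. SESA1 lay near the floor of 4 in both groups, with means of 4.26 after PEG and 4.35 in untreated seeds. Of 3 endosperm markers, MAN7 was higher by 2.88 on the log2 scale. EPR1 had a log2 fold change of -0.98 (adjusted p 0.0289, limma), with all PEG arrays (at most 7.10) below all untreated arrays (at least 7.60), and EXPA2 one of 0.47 (adjusted p 0.0506, limma), and neither passed. Both root hair markers were under 4 on all arrays. The part of such marker shifts in the mitochondrial values was not tested. The 3 arrays per group limit the precision, since exact permutation of a single feature cannot give a two-sided p under 0.1.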

How the data were processed

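Transcript levels were measured on 6 Affymetrix arrays, grouped by the sample titles into 3 PEG and 3 untreated pools. The authors deposited log2 expression values, 1 per gene model, and RMA is named in the submitters' processing notes (version and genome build not given in the sources used here). RMA corrects the background of each array and then normalizes all arrays by quantiles, so a shift common to most features would not be seen. All value columns belong to the 6 arrays.

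Values under 4 were set to 4, as in the study's array methods. A linear model without covariates was fitted to all 35986 features with limma (version 3.58.1, R version 4.3.3), and p-values were moderated by empirical Bayes, adjusted over all features by Benjamini-Hochberg and read against 0.01. Summaries used Python 3.11.15, pandas 2.3.3 and numpy 2.4.6. The fit was tested on simulated data. Rows were called identical when equal to 5 decimals.

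Members and lists were chosen with earlier results of these data known. Named by rule were annotated members, the 5 largest rises (3 existed) and falls that passed with groups apart, and 3 of each per nuclear list, the feature with the highest mean standing for a nuclear gene. All further names were picked once the values were known. The TAIR10.1 RefSeq table gave names and biotypes. The chromosome 2 insertion was represented by loci AT2G07667 to AT2G07787 that lie before ABCC13 in that table, a limit added afterwards. Before that limit the range held 85 features, of which 2 were lower past both limits, against 0 among the 80 kept. Apart from the start positions used for the limit, no coordinates or sequences were used.

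The alternatives removed the floor or raised it to 5, normalized by quantiles, centred each array on its median, kept only features above 4 on 3 or more arrays, used a robust prior with a trend, blocked on replicate number, relaxed the adjusted p to 0.05 or the fold limit to 1, and left out each array. Added after seeing the data were members without an identical row and the filter combined with the block or with an array left out.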

Additional observations from a re-analysis of the deposited data

How the results depend on the processing

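The count of 22 falls was 19 to 23 without a floor, with a floor of 5, after quantile normalization and after centring, and the 3 rises became 5 after centring. With the filter on low values, 7 rises and 32 falls of mitochondrial features and 20 calls of nuclear loci (against 11) were made, and with the trended and robust prior 9, 42 and 23, although that prior was fitted with 12085 features of no variance. The main fit, the block fit and the fits with an array left out held these features as well, except where the filter was applied. Their counts without the filter therefore carry the same limit. At an adjusted p of 0.05, 13 rises, 35 falls and 24 nuclear loci passed. With a fold limit of 1 in place of 2, 15 features passed both limits, against 0. The shares of all features that passed at these looser limits are not given here. Among the 100 features with a row of their own, 14 fell and 3 rose. Leaving out each array gave 1 to 2 rises, 5 to 10 falls and 3 to 5 nuclear loci, and with the filter 3 to 5 rises, 22 to 28 falls and 13 to 16 nuclear loci. Apart from the filter alone, shares of all features are not given for the alternative fits either. Such counts cannot set the mitochondrial features or nuclear loci apart from the background. The median log2 fold change ranged between -0.13 and -0.02 over all alternatives, and centring moved the median of the features kept by the filter to 0.09, against 0.01.

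The sample titles do not say whether same-numbered arrays are paired. Deviations of same-numbered arrays correlated at -0.11, -0.02 and 0.05, and those of differently numbered arrays at -0.14 to 0.12. With 3 arrays per group, these values cannot decide whether the arrays are paired. With the replicate block, 0 rises, 0 falls and 0 nuclear loci passed in limma, and with the block and the filter 5, 26 and 15. The share of all features that passed with the block is not given here. Whether the loss of calls is particular to these features was therefore not tested. At an unadjusted p under 0.05 the fit without the block gave 22 and 47.

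For 27 mitochondrial loci, 351 single values were computed under the alternatives, of which 235 kept their direction and side of the threshold, 100 lost and 14 gained the call, and 2 changed direction, both of ATMG01070 (-0.0150 without PEG replicate 3 and -0.0245 without untreated replicate 1, up to 0.1009 without untreated replicate 3, against 0.04). The cause of these shifts was not tested. Low signal limits what can be seen in the 3 features at or under 4 on all arrays, for which no change could be measured.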
